A study of Mus musculus with 22 samples.

Results

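The constitutive proteasome subunits were followed in mouse cardiac fibroblasts and cardiomyocytes. The members are the rows of the expression table whose symbol is Psma, Psmb, Psmc, Psmd, Psme or Psmg with a number, without the inducible catalytic subunits Psmb8, Psmb9 and Psmb10. This rule found 45 of the 23359 rows, and no measured value entered it. The proteasome is the large protease that degrades proteins tagged with ubiquitin. Its core particle, the 20S, is a barrel of outer alpha rings and inner beta rings, and the beta subunits Psmb5, Psmb6 and Psmb7 carry the proteolytic sites. A cap, the 19S regulatory particle, binds ubiquitin, unfolds the substrate with its ring of ATPases and feeds it into the core. In heart muscle this route turns over sarcomeric and damaged proteins, and in immune conditions the inducible subunits replace their constitutive counterparts.

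Poly-A RNA was sequenced from hearts of wild type C57BL/6 males at 10 to 14 weeks of age, in 22 libraries. The 19 cardiac fibroblast libraries (CF) came from mice after 10 days of swimming (n = 3), 4 days of swimming (n = 3), 10 days of TAC (n = 3), 3 days of TAC (n = 3), 5 days of MI (n = 2) and a 3 day sham operation (n = 2), and from sedentary mice (n = 3). The other 3 libraries were cardiomyocytes (CM) of sedentary mice. TAC and MI stand in the labels as abbreviations only; in this field they denote transverse aortic constriction, a surgical pressure overload, and myocardial infarction. No group carried a transgene or an engineered allele. The labels do not say whether libraries came from separate animals, so a p-value here reflects how these samples vary among themselves and no more. Replicate numbers follow the order of deposit. The titles of the sedentary cardiomyocyte and fibroblast libraries match in 3 pairs, 1 of them by a number written like a date, but the labels do not say what a shared title marks.

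Values are FPKM (fragments per kilobase of transcript, scaled to the library's depth), a level per transcript length, so levels of different genes can be set side by side. Differences are on the log2(FPKM + 1) scale, where the added 1 understates changes of low genes, and each was tested with limma over all genes tested, with Benjamini-Hochberg adjustment. A gene was called higher or lower at an adjusted p under 0.05. Depth could be read only relatively, from the smallest steps of low values, and ran from 1 to 3.12 across libraries. Summed FPKM per library, divided by 1000, was 138 to 205 after TAC or swimming, against 85.1 to 119 in MI, sham and sedentary fibroblasts. In cardiomyocytes it was 180 to 198. The 8 fibroblast markers summed to between 675 and 2169 FPKM in the fibroblast libraries and to at most 115 in cardiomyocytes, and the 10 cardiomyocyte markers to at least 16130 FPKM in cardiomyocytes and between 57.3 and 786 in fibroblasts. Macrophage markers (7 of 8 in the table) were present in every fibroblast library and summed to between 629 and 882 FPKM after 10 days of swimming, 873 and 1204 after 4 days of swimming, 466 and 826 after 10 days of TAC, 613 and 815 after 3 days of TAC, 780 and 801 after MI, 659 and 1422 in sham and 427 and 590 in sedentary fibroblasts. Rn45s, the ribosomal RNA precursor, was listed at 361 to 6988 FPKM after TAC or swimming, 120 to 1289 after MI and 146 to 273 in sham and sedentary fibroblasts. In cardiomyocytes Rn45s was at 756 to 2971 FPKM. The part of these in the results was not tested.

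Of the 45 members, 42 reached the minimum of 1 FPKM in 2 libraries and were tested. Psma8, an alpha subunit of testis, stayed between 0.205 and 1.08 FPKM over all libraries, and Psmb11, the beta subunit of thymic epithelium, between 0.00334 and 0.051 FPKM. Psmc3ip, which carries a similar symbol but is a recombination cofactor and no subunit, stayed between 0.0701 and 0.636 FPKM. In sedentary fibroblasts the beta subunit Psmb4 had the highest level of all members, at 23.8 ± 12.0 FPKM (SD, n = 3), and the assembly chaperone Psmg1 the lowest of those tested, at 0.948 ± 0.363 FPKM. The mean log2 level of the core subunits in sedentary fibroblasts was 3.76 ± 0.52 for the 7 beta and 3.38 ± 0.49 for the 7 alpha subunits. For the cap it was 2.85 ± 0.30 for the 6 ATPases and 2.88 ± 0.42 for the 11 non-ATPase subunits (SD, n = 3 each). Named pseudogenes in GENCODE M21 (1 for Psmb5, 2 for Psmb6 and 1 for Psmb7) could share reads with these genes, and the listed loci of Psma6 (211.8 kb) and Psma3 (41.2 kb) are far longer than their transcripts, so these levels are less certain.

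**Figure D1:**
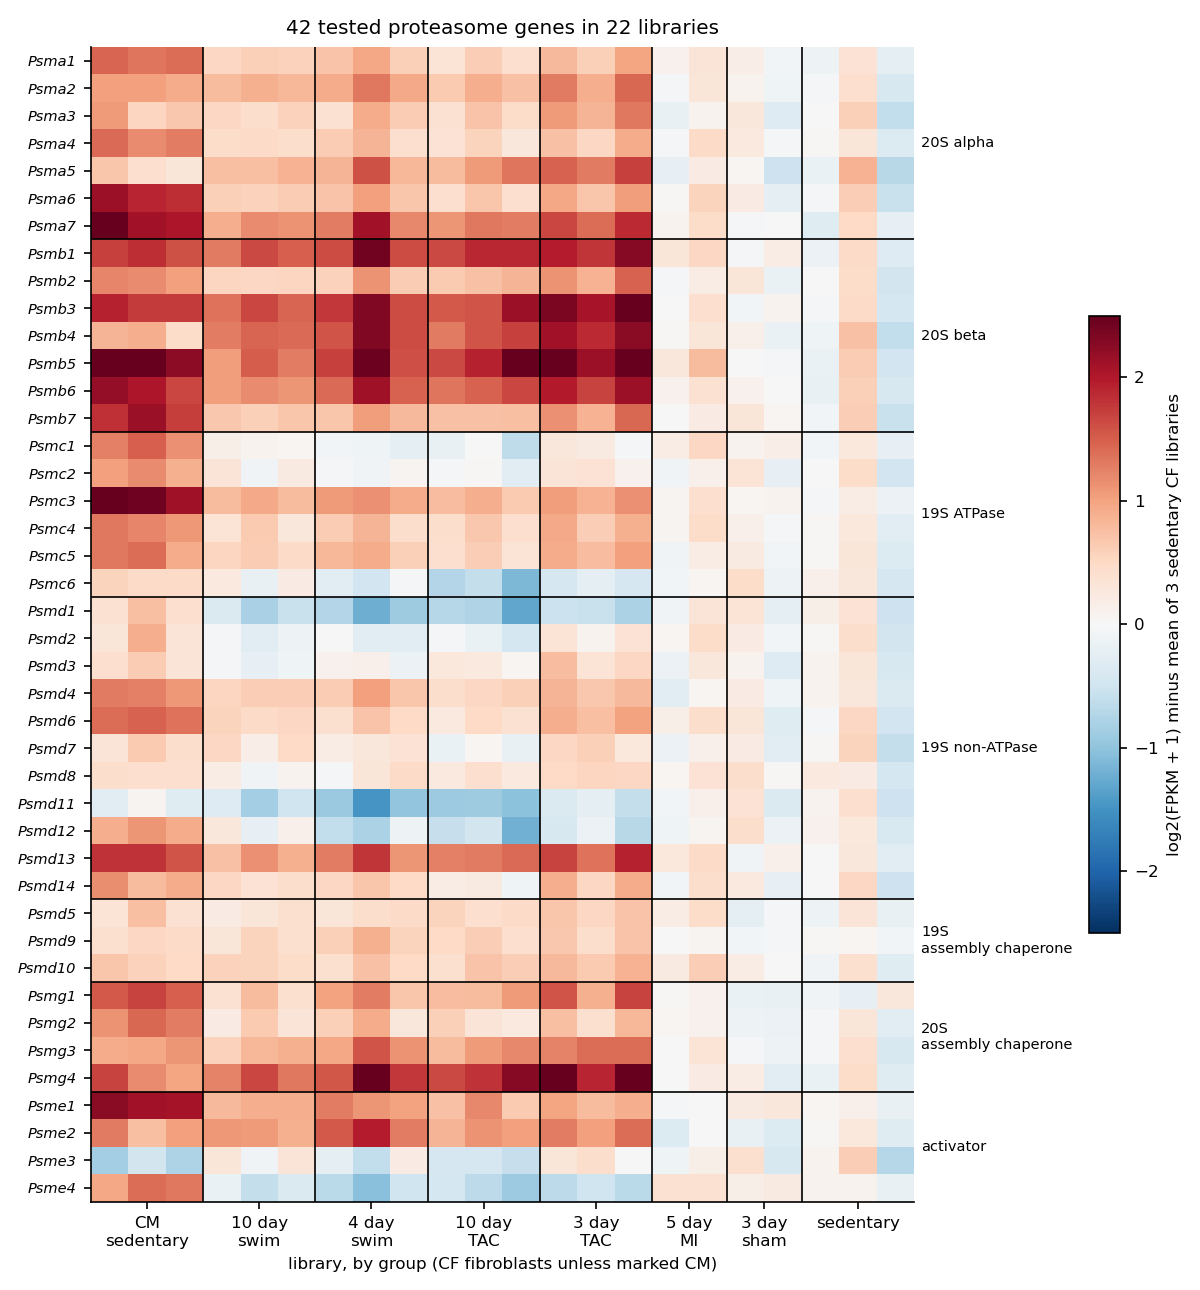
Level of each tested member in each of the 22 libraries, as log2(FPKM + 1) relative to the mean of the sedentary fibroblasts; members run down the page by role and libraries across it by group, cardiomyocytes and the swim and TAC groups left of MI, sham and sedentary. Values beyond 2.5 in either direction are drawn in the end colour. The 7 beta subunits are above the sedentary mean in every TAC and swim library, while Psmd1, Psmd11 and Psme4 are below it there.

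After 3 days of TAC most of the proteasome transcripts were higher than after sham surgery, and the beta subunits had the largest median difference. Of 42 members tested, 31 were called higher and 2 lower, where 31.3% of all genes tested were called higher and 25.8% lower. The median log2 difference was 0.80 for the members and 0.05 for all 9425 genes. All 7 beta subunits (median 1.92) and all 7 alpha subunits (median 1.10) were higher, as were all 4 core assembly chaperones (median 1.5). In the cap, 3 of 6 ATPases (median 0.49) and 5 of 11 non-ATPases (median 0.48) were higher. Sham replicate 2 decided part of these counts: without it 23 members were called higher, with 4 of 7 alpha and 1 of 11 non-ATPase subunits among them. The fibroblast markers summed to 675 to 996 FPKM in 3 day TAC libraries, against 1271 to 1527 FPKM in sham libraries, and their part in the result was not tested. These are bulk samples, in which fewer cells of a type and less RNA per cell cannot be told apart.

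Psmb5, the subunit with chymotrypsin-like activity (listed by the authors at chr14:54614119-54617995, mm10), showed the largest difference. It was at 62.6, 49.0 and 68.8 FPKM in 3 day TAC fibroblasts, against 10.3 and 9.95 FPKM in sham fibroblasts. The groups did not overlap, and the log2 difference was 2.44 (SE 0.329, adjusted p 1.44e-05). Psmg4, a chaperone that helps place the alpha ring, was at 20.4, 12.9 and 24.2 FPKM after TAC, against 3.24 and 2.10 FPKM after sham (log2 difference 2.43, SE 0.342, adjusted p 2.05e-05). Psmb3, a structural subunit of the beta ring, was at 63.5, 51.7 and 76.6 FPKM after TAC, against 11.2 and 12.5 FPKM after sham (2.33, SE 0.280, adjusted p 6.33e-06). Psmb4, also structural, was the most abundant member, at 98.1, 83.0 and 109 FPKM after TAC, against 24.1 and 19.4 FPKM after sham (2.10, SE 0.307, adjusted p 2.98e-05). In each of these genes the lowest TAC library lay above the highest sham library. The other proteolytic subunits were also called, Psmb6 (caspase-like) with a log2 difference of 1.88 and Psmb7 (trypsin-like) with 0.98.

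The cap was uneven. Psmd13, a lid subunit, was at 10.7, 8.31 and 12.8 FPKM in 3 day TAC fibroblasts, against 2.42 and 2.98 FPKM in sham fibroblasts (log2 difference 1.63, SE 0.227, adjusted p 1.89e-05). Psmd1, the larger scaffold of the cap's base, was at 3.51, 3.46 and 2.78 FPKM after TAC, against 7.33 and 4.57 FPKM after sham, and was called lower at -0.68 (SE 0.265, adjusted p 0.0355). It no longer passed when TAC replicate 1 (-0.73, with p at 0.0524 after adjustment), TAC replicate 2 (-0.72, p 0.0502), TAC replicate 3 (-0.60, p 0.102) or sham replicate 1 (-0.39, p 0.336) was left out. Without sham replicate 2, 4 members were called lower in place of 2. Among the activators, which open the core in place of the cap, Psme1 (0.64, adjusted p 0.00600) and Psme2 (1.5, adjusted p 2.6e-05), the partners of the interferon-inducible ring, were higher. The nuclear activator Psme3 was not called (0.24, adjusted p 0.546). Psme4, a large single-chain activator, was lower, at 0.760, 0.953 and 0.740 FPKM after TAC, against 2.08 and 2.23 FPKM after sham (-0.80, SE 0.170, adjusted p 0.000797).

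**Figure D2:**
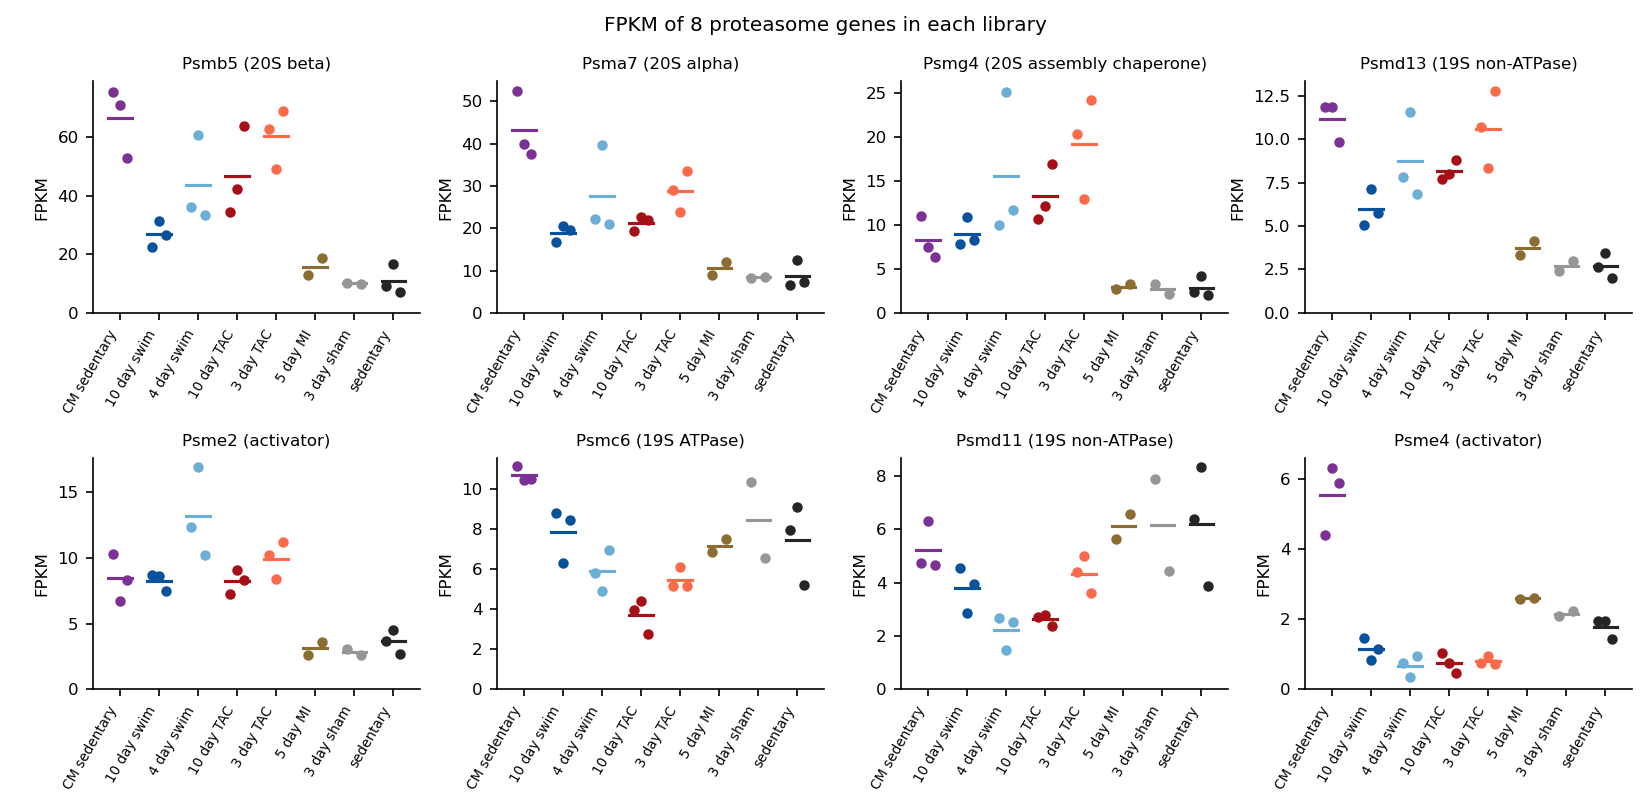
FPKM of members named in the text in each library, by group, with the mean as a bar; groups run from cardiomyocytes and the swim and TAC fibroblasts on the left to MI, sham and sedentary fibroblasts on the right. Psmb5 is at 49.0 to 68.8 FPKM after 3 days of TAC and at 7.20 to 16.6 FPKM in sedentary fibroblasts, whereas Psmd11 is at 3.63 to 4.99 and 3.87 to 8.33 FPKM in the same groups.

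The promoters of 37 members could be matched to RefSeq windows of build GRCm38.p6, the assembly of mm10, and are shown for Psmb5 and Psmb3, which stood among the largest rises, and for Psmc6 and Psmd12, which were lower in 10 day TAC. Each line gives the 250 bases before the RefSeq start, 5′ to 3′ on the gene's own strand. Capitals mark matches to TGACNNNGC, the core letters of the element bound by Nfe2l1 and Nfe2l2, or to CCAAT, the letters bound by the factor NF-Y, on either strand. The windows lie at chr14:54617996-54618245, minus strand (Psmb5), chr11:97703184-97703433, plus strand (Psmb3), chr14:45329574-45329823, plus strand (Psmc6) and chr11:107479278-107479527, plus strand (Psmd12).
Psmb5: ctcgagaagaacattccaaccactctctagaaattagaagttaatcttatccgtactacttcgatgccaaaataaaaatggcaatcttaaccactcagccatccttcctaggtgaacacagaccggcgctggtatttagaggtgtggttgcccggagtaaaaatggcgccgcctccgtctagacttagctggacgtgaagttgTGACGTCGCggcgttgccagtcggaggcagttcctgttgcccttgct
Psmb3: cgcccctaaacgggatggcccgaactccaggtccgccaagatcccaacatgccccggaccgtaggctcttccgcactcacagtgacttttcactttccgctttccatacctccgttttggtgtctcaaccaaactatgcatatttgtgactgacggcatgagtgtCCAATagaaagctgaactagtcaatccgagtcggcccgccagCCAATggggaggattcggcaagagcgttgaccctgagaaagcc
Psmc6: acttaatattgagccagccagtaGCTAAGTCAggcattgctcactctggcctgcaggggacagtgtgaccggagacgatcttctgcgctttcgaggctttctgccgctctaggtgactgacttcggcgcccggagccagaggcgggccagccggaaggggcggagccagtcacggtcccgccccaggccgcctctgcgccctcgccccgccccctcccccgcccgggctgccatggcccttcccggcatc
Psmd12: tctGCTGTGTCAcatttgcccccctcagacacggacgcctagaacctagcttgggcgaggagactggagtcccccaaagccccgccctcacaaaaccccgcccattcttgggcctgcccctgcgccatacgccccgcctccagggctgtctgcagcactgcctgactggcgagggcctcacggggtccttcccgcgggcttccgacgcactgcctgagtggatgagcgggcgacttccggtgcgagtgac
Counted from the start, where -1 is the last base of each line, the TGACNNNGC match begins at -47 in Psmb5 and the CCAAT matches begin at -85 and -43 in Psmb3. In Psmc6 and Psmd12 the TGACNNNGC match lies on the opposite strand and begins at -227 and -247. Over all members TGACNNNGC occurred in 5 of 37 (13.5%), which also include Psmb6 and Psmd9, against 11.5% of 27025 genes, and CCAAT in 14 of 37 (37.8%), against 37.5%. The genes shown above all hold a match. Psmg4 and Psmb4, also among the largest rises, and Psmd11 and Psmd1, also lower in 10 day TAC, had 0 matches to either motif. No member had both motifs and no matches overlapped. A match describes letters and is neither a bound site nor a cause.

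After 10 days of TAC the core was again higher, while called cap subunits went in both directions, relative to sedentary fibroblasts. Of 42 members, 24 were called higher (38.8% of all genes tested) and 5 lower (27% of all genes tested). The members' median log2 difference was 0.51, and that of all genes 0.12. All 7 beta subunits (median 1.53), 4 of 7 alpha subunits (0.52) and 3 of 4 core chaperones (0.94) were higher. Among the ATPases 3 of 6 were higher and 1 lower (median 0.18), and among the non-ATPases 2 of 11 were higher and 3 lower (median 0.10). Without sedentary replicate 2 all 7 alpha subunits were called higher. Without sedentary replicate 3 the higher calls came to 18, with 1 ATPase and 1 non-ATPase among them. Leaving out TAC replicate 2 also left 1 ATPase called higher, and leaving out TAC replicate 3 left 1 non-ATPase.

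Psmb5 was at 34.5, 42.1 and 63.5 FPKM in 10 day TAC fibroblasts, against 9.12, 16.6 and 7.20 FPKM in sedentary fibroblasts (log2 difference 2.02, SE 0.294, adjusted p 1.98e-05). Psmb1, a structural beta subunit, was at 34.0, 40.4 and 40.2 FPKM after TAC, against 9.04, 14.5 and 7.99 FPKM in sedentary fibroblasts (1.81, SE 0.235, adjusted p 7.9e-06). The groups did not overlap in either gene. Psmg4 (1.91, adjusted p 4.87e-05) and Psmb3 (1.75, adjusted p 1.78e-05) completed the 4 largest rises, and Psmb4 (1.53) and Psmb6 (1.49) were higher too. Psmb7 was higher by 0.74 (adjusted p 0.00947). With sedentary replicate 3 left out it no longer passed (0.46, adjusted p 0.0616). Psme1 (0.86, adjusted p 0.000186) and Psme2 (1.0, adjusted p 0.000275) were higher.

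The fallers belonged to the cap and to the activators. Psmd11, a lid subunit that links lid and base (listed at chr11:80428614-80472133), was at 2.72, 2.77 and 2.39 FPKM in 10 day TAC fibroblasts, against 6.38, 8.33 and 3.87 FPKM in sedentary fibroblasts (-0.94, SE 0.237, adjusted p 0.00236). Psmd1 was at 3.00, 2.91 and 1.67 FPKM after TAC, against 6.23, 7.43 and 3.59 FPKM in sedentary fibroblasts (-0.91, SE 0.237, adjusted p 0.00290). Psmc6, an ATPase of the base, was at 3.98, 4.43 and 2.77 FPKM after TAC, against 7.97, 9.12 and 5.22 FPKM in sedentary fibroblasts (-0.82, SE 0.213, adjusted p 0.00284). In all 3 genes the groups did not overlap. Psmd12, a further lid subunit, was at 3.10, 3.43 and 1.66 FPKM after TAC, against 5.61, 6.34 and 3.71 FPKM in sedentary fibroblasts (-0.75, SE 0.245, adjusted p 0.0130). Psmd12 no longer passed when TAC replicate 3 (-0.52, adjusted p 0.0854) or sedentary replicate 2 (-0.62, p 0.0591) was left out. Psme4 was called lower at -0.67 (SE 0.152, adjusted p 0.00105), and Psme3 was not called (-0.47, adjusted p 0.158). It was called lower without sedentary replicate 3 (-0.83, adjusted p 0.0118) and after removal of a length and GC trend on the longest transcript (-0.66, adjusted p 0.0316).

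Swimming for 4 days gave 30 members called higher (38.2% of all genes tested) and 3 lower (26.3% of all genes tested), relative to the same sedentary libraries. The median log2 difference was 0.72 for the members and 0.13 for all genes. All 7 beta (median 1.84) and all 7 alpha subunits (0.81) were higher, with 3 of 6 ATPases (0.31), 4 of 11 non-ATPases (0.25), all 3 cap chaperones (0.54) and all 4 core chaperones (1.11). Without sedentary replicate 3, 23 members were called higher, with 2 of 11 non-ATPases and 1 of 3 cap chaperones among them, and 2 non-ATPases were also left without sedentary replicate 1, swim replicate 2 or swim replicate 3. Endothelial markers summed to 10.5 to 13.4 FPKM in 4 day swim libraries, against 39.9 to 55.5 FPKM in sedentary libraries, and pericyte and smooth muscle markers to 12.6 to 17 FPKM, against 27.7 to 44.3 FPKM. Their part in the result was not tested. Psmg4 was at 9.99, 25.1 and 11.7 FPKM in 4 day swim fibroblasts, against 2.35, 4.15 and 2.03 FPKM in sedentary fibroblasts (2.04, SE 0.305, adjusted p 2.4e-05). Psmb5 was at 36.1, 60.8 and 33.5 FPKM after swimming, against 9.12, 16.6 and 7.20 FPKM in sedentary fibroblasts (1.92, SE 0.294, adjusted p 3.07e-05). Swim replicate 2 was the highest of its group in both, and no swim library overlapped the sedentary ones. Psmb3 (1.91) and Psmb1 (1.89) were the next largest, and Psmb6 (1.68) and Psmb7 (0.85, adjusted p 0.00383) were also higher.

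Among the activators, Psme2 was at 12.3, 16.8 and 10.2 FPKM after 4 days of swimming, against 3.70, 4.55 and 2.72 FPKM in sedentary fibroblasts (1.59, SE 0.193, adjusted p 3.6e-06). Its partner Psme1 was at 16.5, 14.6 and 13.6 FPKM after swimming, against 6.56, 6.91 and 5.41 FPKM in sedentary fibroblasts (1.13, SE 0.160, adjusted p 1.49e-05). The groups were separate for both genes, and Psme3 was not called (-0.21, adjusted p 0.544). The 3 fallers were Psmd11, Psmd1 and Psme4. Psmd11 was at 2.66, 1.49 and 2.52 FPKM after swimming, against 6.38, 8.33 and 3.87 FPKM in sedentary fibroblasts (-1.13, SE 0.237, adjusted p 0.000530). Psmd1 was at 2.94, 1.82 and 2.52 FPKM after swimming, against 6.23, 7.43 and 3.59 FPKM in sedentary fibroblasts (-0.95, SE 0.237, adjusted p 0.00220). Psme4 was at 0.746, 0.343 and 0.959 FPKM after swimming, against 1.95, 1.96 and 1.44 FPKM in sedentary fibroblasts (-0.74, SE 0.152, adjusted p 0.000455). Swim replicate 2, the highest for the core genes above, was the lowest of its group for all 3 fallers.

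After 10 days of swimming 20 members were called higher (30% of all genes tested) and 0 lower (13.6% of all genes tested) by limma, and 3 members were lower at an unadjusted p under 0.05. The members' median was 0.53 and that of all genes 0.14. All 45 members together made up 0.337 to 0.347% of summed FPKM in 10 day swim libraries, against 0.254 to 0.360% in sedentary libraries. This share was 0.281 to 0.398% in 4 day swim and 0.371 to 0.391% in 10 day TAC. In 3 day TAC it was 0.423 to 0.511%, against 0.246 to 0.294% in sham. Among these groups only the TAC shares did not overlap those of their controls. Fibroblast markers summed to 1215 to 1428 FPKM in 10 day swim libraries, against 966 to 1193 FPKM in sedentary libraries, endothelial markers to 20.5 to 27.8 FPKM, against 39.9 to 55.5 FPKM, and pericyte and smooth muscle markers to 15.7 to 22.2 FPKM, against 27.7 to 44.3 FPKM, and their part was not tested. In the core, 6 of 7 beta (median 1.28) and 3 of 7 alpha subunits (0.61) were higher, with 2 of 6 ATPases (0.29), 2 of 11 non-ATPases (0.07) and 3 of 4 core chaperones (0.65). Psmb3 was at 31.4, 39.5 and 33.9 FPKM in 10 day swim fibroblasts, against 11.3, 16.7 and 8.38 FPKM in sedentary fibroblasts (1.5, SE 0.251, adjusted p 0.000217). Psmb1 was at 26.4, 34.0 and 30.4 FPKM after swimming, against 9.04, 14.5 and 7.99 FPKM in sedentary fibroblasts (1.48, SE 0.235, adjusted p 0.000149). Both genes separated the groups. Psmg4 (1.41, adjusted p 0.00152) and Psmb4 (1.38, adjusted p 0.000830) completed the 4 largest rises, followed by Psmb5 (1.28, adjusted p 0.00237) and Psmb6 (1.11, adjusted p 0.00135). Psme1 (0.88, adjusted p 0.000441) and Psme2 (1.01, adjusted p 0.000624) were higher and Psme3 was not called (0.18, adjusted p 0.639).

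Psmb7 after 10 days of swimming was called by a narrow margin (0.65, adjusted p 0.0293), with 17.8, 16.7 and 18 FPKM against 10.3, 17 and 7.04 FPKM in sedentary fibroblasts. Sedentary replicate 2 lay within the swim range, and leaving out any of 5 libraries ended the call, with adjusted p at 0.0851 and 0.160 for sedentary replicates 1 and 3 and at 0.0654, 0.0603 and 0.0759 for swim replicates 1, 2 and 3. Psmd1 (-0.57, adjusted p 0.0594), Psmd11 (-0.56, adjusted p 0.0669) and Psme4 (-0.37, adjusted p 0.0549) missed the threshold. Without sedentary replicate 3 all 3 passed it, at -0.83 (adjusted p 0.0104), -0.81 (adjusted p 0.0114) and -0.47 (adjusted p 0.0351), and Psme4 also passed without swim replicate 1 (-0.48, adjusted p 0.0306). Sedentary replicate 2 was the highest and replicate 3 the lowest of the sedentary group for most members, for example 37.2 and 14.0 FPKM in Psmb4. Without sedentary replicate 2, 30 members were called higher in place of 20, with all 7 alpha and 5 of 11 non-ATPase subunits among them. Without sedentary replicate 3, 15 were called higher, with 1 ATPase, 1 non-ATPase and 1 cap chaperone. Of the 2 cap chaperones called, 1 was left without swim replicate 1 or sedentary replicate 1 and 0 without swim replicate 2, which also left 1 ATPase.

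MI and sham fibroblasts showed no called member against sedentary fibroblasts with all libraries in. After 5 days of MI, 0 of 42 members were called by limma in either direction, 2 had an unadjusted p under 0.05, and 8.93% of all genes tested were called higher and 2.34% lower. The authors' deposited table also called 0 members there, with 9.7% of all its genes higher and 3.26% lower. Fibroblast markers summed to 1938 to 2169 FPKM in MI libraries, against 966 to 1193 FPKM in sedentary libraries. The members' median log2 difference was 0.15, within a range of -0.17 to 0.53, and that of all genes was 0.10. Psmb5 was at 12.8 and 18.6 FPKM in MI fibroblasts, against 9.12, 16.6 and 7.20 FPKM in sedentary fibroblasts (0.53, SE 0.329, adjusted p 0.348), so the groups overlapped. Psmb6 (0.25), Psmb7 (0.11), Psme1 (-0.01), Psme2 (-0.17) and Psme3 (0.02) overlapped as well. Psme4 was at 2.59 and 2.61 FPKM after MI, against 1.95, 1.96 and 1.44 FPKM in sedentary fibroblasts, and was not called (0.38, adjusted p 0.180). Without sedentary replicate 2 the cap chaperones Psmd5 (0.48, adjusted p 0.0373) and Psmd10 (0.62, adjusted p 0.0269) were called higher.

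Sham against sedentary fibroblasts gave 0 members called higher (0.0212% of all genes tested) and 0 lower (0% of all genes tested) by limma, 0 members at an unadjusted p under 0.05, and 0 in the authors' deposited table (1.39% of its genes higher and 0.545% lower). The members' differences ran from -0.26 to 0.26, with a median of 0.02, and the all-gene median was 0.09. Psmb5 was at 10.3 and 9.95 FPKM in sham fibroblasts, against 9.12, 16.6 and 7.20 FPKM in sedentary fibroblasts. The 10 day TAC and both swim comparisons and the MI comparison share the sedentary libraries, so their differences are not independent of each other.

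The 20 members called higher after 10 days of swimming were 6 of the 7 beta subunits (all but Psmb2), Psma1, Psma2 and Psma7, the ATPases Psmc3 and Psmc5, the ubiquitin receptor Psmd4, Psmd13, the cap chaperones Psmd9 and Psmd10, Psme1 and Psme2, and the core chaperones Psmg1, Psmg3 and Psmg4. In the authors' deposited table, with its groups matched by name, 25 of 44 members were higher and 1 lower in 3 day TAC (17.3% and 18.3% of all its genes). In the authors' deposited table, 23 were higher and 3 lower in 10 day TAC (25.6% and 15.8%), 19 and 3 in 4 day swim (21.1% and 16.4%), and 14 and 0 in 10 day swim (16.6% and 11.6%).

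**Figure D3:**
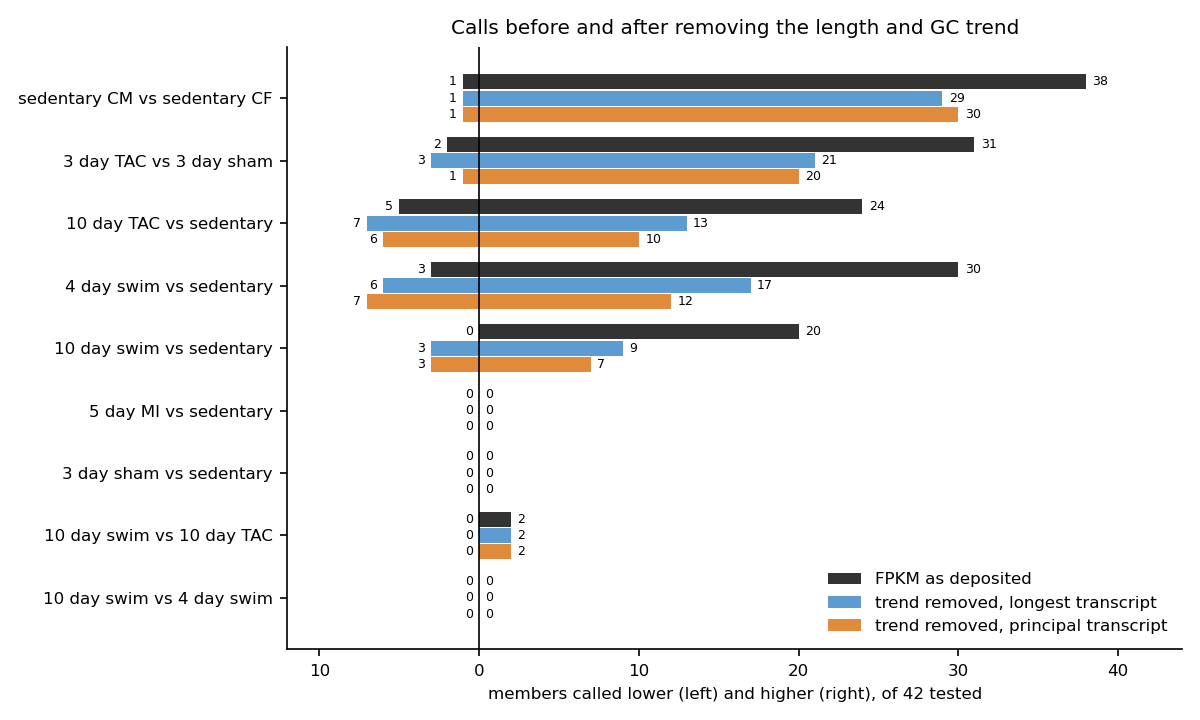
Number of tested members called higher and lower in each comparison, as deposited and after the length and GC trends were removed. The 31, 24, 30 and 20 members higher after TAC and swimming become 21, 13, 17 and 9 when the trend on the longest transcript is removed.

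Swimming and TAC were compared directly at 10 days, in groups that share no library. Fibroblast markers summed to 1215 to 1428 FPKM in 10 day swim libraries, against 825 to 1105 FPKM in 10 day TAC libraries, endothelial markers to 20.5 to 27.8 FPKM, against 37.1 to 88.6 FPKM, and pericyte and smooth muscle markers to 15.7 to 22.2 FPKM, against 43.3 to 46.6 FPKM, and their part was not tested. Only Psmc6 and Psmd12 were called, both higher after swimming (2 of 42 members, with 10.9% of all genes tested called higher), and 0 members were called lower by limma (13.2% of all genes tested), with 1 lower at an unadjusted p under 0.05. Psmc6 was at 8.80, 6.31 and 8.47 FPKM in 10 day swim fibroblasts, against 3.98, 4.43 and 2.77 FPKM in 10 day TAC fibroblasts (0.91, SE 0.213, adjusted p 0.00620). Psmd12 was at 6.42, 4.33 and 5.70 FPKM after swimming, against 3.10, 3.43 and 1.66 FPKM after TAC (0.82, SE 0.245, adjusted p 0.0238). Both genes separated the groups and stayed called after either removal of the length and GC trend (7.56% of all genes with both lengths did so upward and 8.8% downward). Psmd12 no longer passed when swim replicate 1 (0.71, adjusted p 0.108), swim replicate 3 (0.79, p 0.0815) or TAC replicate 3 (0.59, p 0.137) was left out. Psmb5 pointed the other way, at 22.3, 31.5 and 26.6 FPKM after swimming, against 34.5, 42.1 and 63.5 FPKM after TAC. It missed the threshold (-0.75, SE 0.294, adjusted p 0.0716), passed it without TAC replicate 1 (-0.94, adjusted p 0.0478), and was listed at -0.73 with a q-value of 0.0431 in the authors' deposited table. Psmb6 (-0.38), Psmb7 (-0.09), Psme1 (0.01), Psme2 (0.01), Psme3 (0.65, adjusted p 0.103) and Psme4 (0.30) were not called.

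Swimming for 10 days against 4 days gave 0 members called higher (0.0106% of all genes tested) and 0 lower (0.308% of all genes tested) by limma, and 0 in the authors' deposited table (4.01% of its genes higher and 1.75% lower), while 10 members had an unadjusted p under 0.05. The differences ran from -0.64 to 0.58 with a median of -0.20, against 0.01 for all genes. Psmb5 was lowest among them, at 22.3, 31.5 and 26.6 FPKM at 10 days, against 36.1, 60.8 and 33.5 FPKM at 4 days, which do not overlap (-0.64, SE 0.294, adjusted p 0.200).

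Transcript length went with the size of the differences. Core subunits and core chaperones have short transcripts, and in the TAC and swim comparisons the log2 differences of the 42 members fell with the length of the principal transcript (Spearman rho across genes -0.64 for 3 day TAC, -0.64 for 10 day TAC, -0.70 for 4 day swim and -0.67 for 10 day swim). The same held over all genes with the longest transcript (-0.56, -0.51, -0.60 and -0.59). After MI and sham the members' values were -0.04 and 0.18. Within a library, log2 FPKM over all genes fell by 0.59 to 1.02 per doubling of principal transcript length after TAC or swimming and in cardiomyocytes, and by 0.19 to 0.33 in MI, sham and sedentary fibroblasts. Genes are not independent replicates, and these values describe the libraries. Length and group therefore moved together, and their shares in a difference cannot be told apart from these groups alone.

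Set beside other genes of the same length, the short members differed less from the rest than the counts above show. In 3 day TAC the 8 members with principal transcripts under 1000 bases had a median difference of 1.77, against 1.19 for 739 other genes of that length, of which 72.7% were called higher. In 10 day TAC these medians were 1.36 and 1.36, in 4 day swim 1.63 and 1.47, and in 10 day swim 1.09 and 0.98. From 1000 to under 1500 bases, 14 members had a median of 0.82 against 0.71 in 3 day TAC, 0.51 against 0.78 in 10 day TAC, 0.78 against 0.88 in 4 day swim and 0.56 against 0.61 in 10 day swim. At 1500 to under 2000 bases (9 members) medians were, in that order, 0.48 against 0.38, 0.10 against 0.48, 0.27 against 0.57 and 0.39 against 0.41. At 2000 to under 3000 bases (8 members) they were 0.44 against 0.10, -0.02 against 0.19, -0.07 against 0.21 and 0.14 against 0.19. Both of these classes lay above the other genes in 3 day TAC and below them in the other comparisons. The 3 members of 3000 bases or more had medians below those of the 3997 other genes of that length in all 4 comparisons, at -0.68 against -0.40 in 3 day TAC, -0.67 against -0.32 in 10 day TAC, -0.74 against -0.38 in 4 day swim and -0.37 against -0.18 in 10 day swim. With 3 members each such median is the value of 1 gene. In 3 day TAC, 10 day TAC and 4 day swim 1 of the 3 was called higher and 2 lower, and in 10 day swim 0 either way. Of the other genes of that length, 11.1%, 17.7%, 13.1% and 8.63% were called higher in these comparisons, in that order. Lower were 45.5%, 44.8%, 48.5% and 26.7%.

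**Figure D4:**
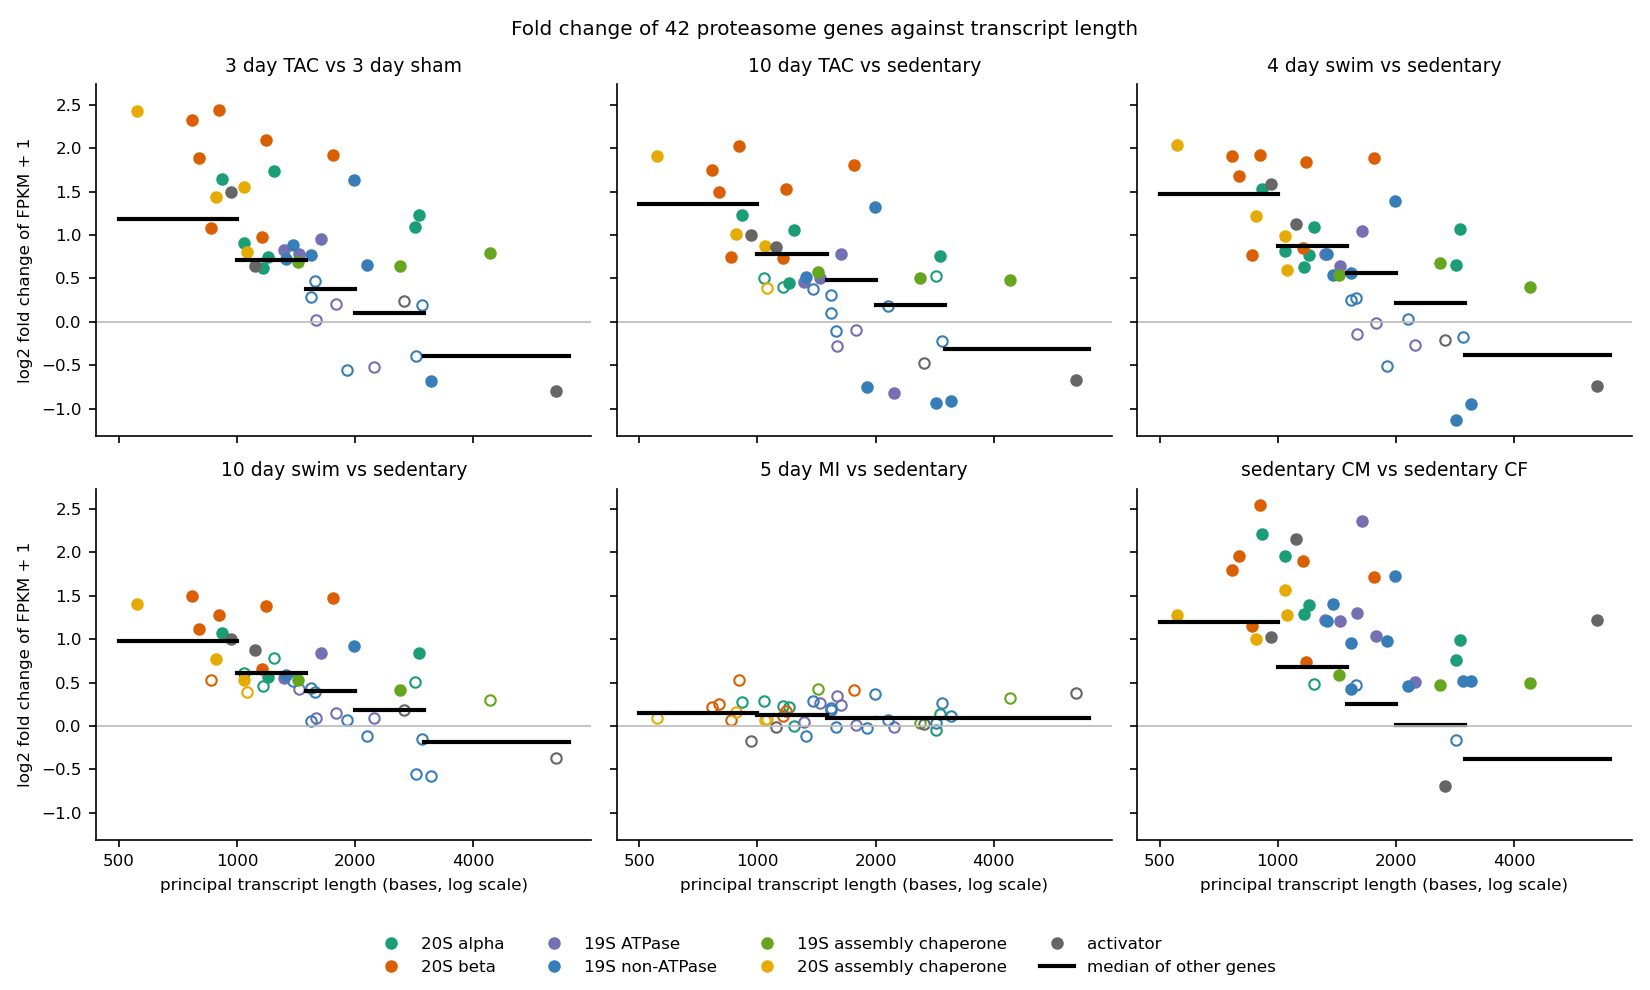
Log2 difference of each tested member against the length of its principal transcript in bases, on a log axis. The panels set 3 day TAC against sham, and 10 day TAC, 4 day swim, 10 day swim and 5 day MI against sedentary fibroblasts. The last panel sets sedentary cardiomyocytes against sedentary fibroblasts. Filled points are called and open points are not. Black bars give the median of the other genes in each of 5 length classes. Members under 1000 bases have a median of 1.77 in 3 day TAC and the other genes 1.19.

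A smooth trend on length and GC content was then removed from each library. Among the TAC and swim comparisons with controls, a clear median difference over all members was left in 3 day TAC only. The beta subunits kept one in each TAC and swim comparison. On the longest transcript, 21 members were called higher and 3 lower in 3 day TAC (25.9% and 22.8% of all genes with a length), 13 and 7 in 10 day TAC (30.3% and 26.9%), 17 and 6 in 4 day swim (29.2% and 26.2%), and 9 and 3 in 10 day swim (16.6% and 14.6%). With the principal transcript, 20 members were higher and 1 lower in 3 day TAC (25.4% and 20.8% of all genes with that length), 10 and 6 in 10 day TAC (30.4% and 26.3%), 12 and 7 in 4 day swim (29.2% and 24.4%), and 7 and 3 in 10 day swim (16.2% and 13.1%). On the longest transcript the members' median was 0.37 in 3 day TAC, 0.00 in 10 day TAC, -0.01 in 4 day swim and 0.00 in 10 day swim. The beta subunits kept medians of 1.30, 0.90, 0.83 and 0.58 in that order, the alpha subunits 0.85, 0.32, 0.18 and 0.11, the ATPases 0.19, -0.18, -0.07 and -0.09, and the non-ATPases 0.11, -0.25, -0.33 and -0.32. With the principal transcript the beta medians were 1.21, 0.59, 0.58 and 0.43, the alpha medians 0.75, 0.32, 0.32 and 0.19, the ATPase medians 0.05, -0.27, -0.20 and -0.10, and the non-ATPase medians 0.08, -0.33, -0.30 and -0.19. The mean detrended log2 level of the beta subunits was 5.35 in 3 day TAC, against 4.15 in sham fibroblasts. It was 4.76 in 10 day swim, 4.97 in 4 day swim and 5.02 in 10 day TAC, against 4.23 in sedentary fibroblasts.

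Calls were then counted only where they stood as deposited and after both trend removals. In 3 day TAC 18 of 42 members tested were higher by this rule, out of 31 rises as deposited. Of all genes with both lengths, 16.3% met the rule there. In 10 day TAC 8 of 42 members met it, out of 24 rises (21.5% of all genes). In 4 day swim it was 12 of 42, out of 30 (19.4%), and in 10 day swim 6 of 42, out of 20 (11.1%). The percentages are shares of all genes, not of the rises. The 6 in 10 day swim were Psma2, Psmb1, Psmb3, Psmb4, Psmc3 and Psmd13. The 8 in 10 day TAC were Psma2, Psmb1, Psmb3, Psmb4, Psmb5, Psmd13 and the cap chaperones Psmd5 and Psmd10. Psma2, whose transcript of 2911 bases is long for an alpha subunit, was at 28.7, 21.8 and 31.6 FPKM after 3 days of TAC, against 11.8 and 10.2 FPKM after sham, and its difference was 1.23 as deposited and 1.53 after the trend on the longest transcript was removed. Psmg4 lost its call in 10 day TAC, 4 day swim and 10 day swim with the principal transcript (0.45, adjusted p 0.0689; 0.44, adjusted p 0.0824; 0.34, adjusted p 0.220). Psmb7 lost its call with the principal transcript in all 4 (0.38, 0.16, 0.04 and 0.03), as did Psme1 (-0.26, -0.08, 0.08 and 0.15). Downward, 0 of 42 members met the rule in 3 day TAC, out of 2 falls (13.4% of all genes). Psmc6, Psmd1, Psmd11 and Psmd12 met it in 10 day TAC, 4 of 42 members out of 5 falls (15.9% of all genes). Psmd1 and Psmd11 met it in 4 day swim, 2 of 42 members out of 3 falls (14.4%). In 10 day swim, which had no fall to keep, 6.57% of all genes met the rule downward. Psme4, the longest member, lost its call in 3 day TAC, 10 day TAC and 4 day swim, with differences between -0.07 and 0.03 after either removal. It had no call to lose in 10 day swim.

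Within a library, the distance between core and cap can be read without a group comparison of totals. This distance still holds the library's length trend, which was not removed here. That trend also separated TAC and swim libraries from MI, sham and sedentary fibroblast libraries. The mean log2 level of the beta subunits exceeded that of the 19S subunits by 1.63 to 1.97 in 10 day swim, 2.06 to 2.66 in 4 day swim, 2.10 to 2.67 in 10 day TAC and 2.12 to 2.60 in 3 day TAC libraries, against 1.01 in both MI libraries, 0.76 to 1.0 in sham and 0.73 to 1.11 in sedentary fibroblasts. Every TAC and swim library lay above every MI, sham and sedentary fibroblast library. For the alpha subunits the distance was 0.87 to 1.07 in 10 day swim, 1.10 to 1.56 in 4 day swim, 1.03 to 1.34 in 10 day TAC and 1.02 to 1.43 in 3 day TAC, against 0.50 to 0.57 in MI, 0.41 to 0.45 in sham and 0.37 to 0.68 in sedentary fibroblasts. Over the 19 fibroblast libraries, pairs of 20S subunits had a median Pearson r of 0.94 (91 pairs), pairs of 19S subunits 0.47 (136 pairs) and mixed pairs 0.58 (238 pairs). With the group means removed these were 0.88, 0.64 and 0.60. The points share libraries, depth and the length trend, and the values are a description.

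**Figure D5:**
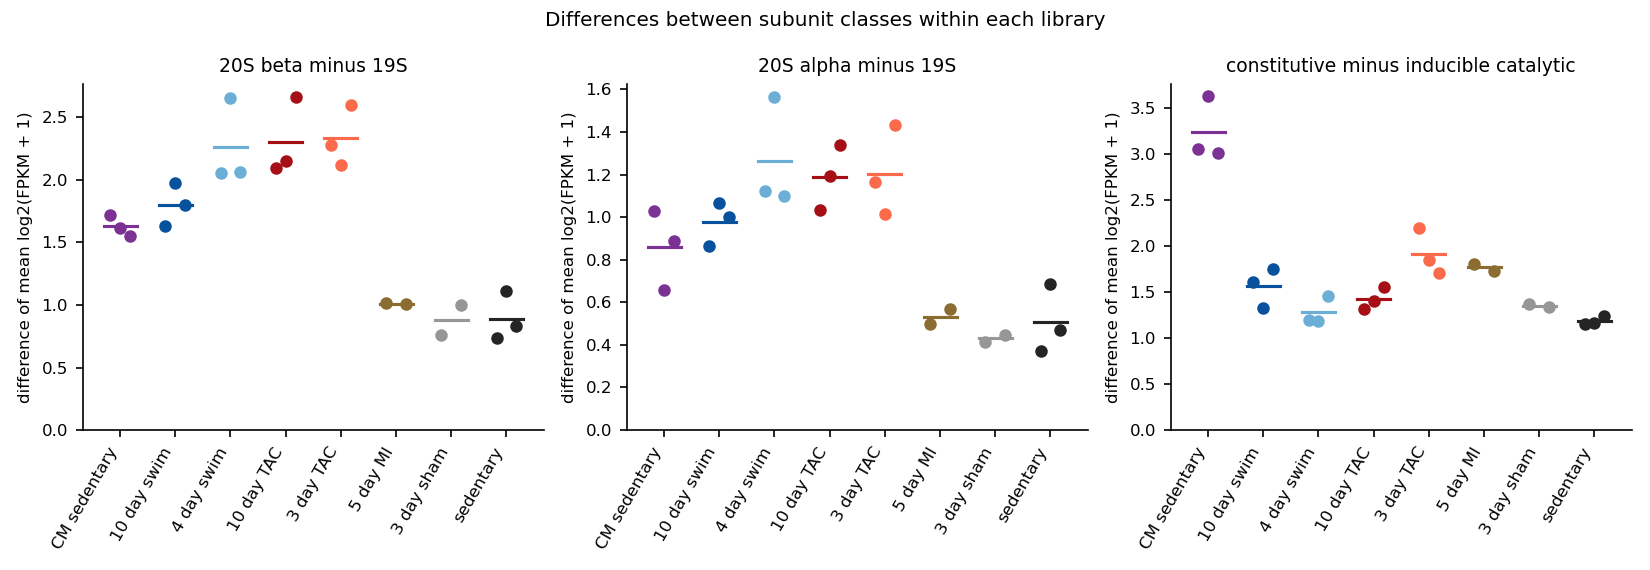
Difference between the mean log2(FPKM + 1) of subunit classes within each library, by group, in 3 panels: beta minus 19S, alpha minus 19S, and constitutive minus inducible catalytic subunits. Beta minus 19S is 1.63 to 2.67 after TAC or swimming and 0.73 to 1.11 in MI, sham and sedentary fibroblasts, and constitutive minus inducible is 3.02 to 3.64 in cardiomyocytes.

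Most proteasome transcripts had a higher FPKM in sedentary cardiomyocytes than in sedentary fibroblasts. All 45 members together made up 0.416 to 0.449% of summed FPKM in cardiomyocytes, against 0.254 to 0.360% in these fibroblasts. Of 42 members, 38 were called higher (38.7% of all genes tested) and 1 lower (38.6% of all genes tested), with a median log2 difference of 1.18, against -0.05 for all 10371 genes. All 7 beta (median 1.80), 6 of 7 alpha (1.29), all 6 ATPases (1.21), 9 of 11 non-ATPases (0.51), all cap and core chaperones (0.49 and 1.28) and 3 of 4 activators (1.12) were higher. The non-ATPases called higher came to 5 of 11 without fibroblast replicate 3 or without cardiomyocyte replicate 2, which left 31 and 32 members called higher in all. Pericyte and smooth muscle markers summed to 182 to 330 FPKM in cardiomyocyte libraries, against 27.7 to 44.3 FPKM in sedentary fibroblast libraries. Of these 6 markers, Cspg4 and Myh11 stayed under 1 FPKM in every cardiomyocyte library. Macrophage markers summed to 61.1 to 187 FPKM in cardiomyocyte libraries, against 427 to 590 FPKM in sedentary fibroblast libraries. The part of these cells in the result was not tested. Psmb5 was at 75.4, 70.8 and 52.8 FPKM in cardiomyocytes, against 9.12, 16.6 and 7.20 FPKM in fibroblasts (2.55, SE 0.286, adjusted p 1.05e-07). Psmc3, an ATPase of the base, was at 43.3, 40.5 and 32.6 FPKM in cardiomyocytes, against 6.42, 7.76 and 5.99 FPKM in fibroblasts (2.36, SE 0.158, adjusted p 3.61e-11). Psma7, an alpha subunit, was at 52.4, 39.9 and 37.6 FPKM in cardiomyocytes, against 6.68, 12.5 and 7.25 FPKM in fibroblasts (2.21, SE 0.240, adjusted p 6.45e-08). The cell types did not overlap in any of these genes. Psme1 (2.15, adjusted p 1.14e-10), Psmb6 (1.96), Psmb7 (1.90) and Psme2 (1.02) were higher as well.

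The trend removal left most of these cardiomyocyte calls, in the cap as in the core. On the longest transcript 29 of 42 members were higher and 1 lower (36.4% and 41% of all genes), with a median of 0.62. As deposited and with either transcript, 28 of 42 members were higher, out of 38 rises, and 1 was lower (31.7% and 32.7% of all genes). Psmd12, called lower in 10 day TAC fibroblasts, was at 10.5, 12.1 and 10.6 FPKM in cardiomyocytes, against 5.61, 6.34 and 3.71 FPKM in sedentary fibroblasts (0.98, adjusted p 0.000801). Psme4 was at 4.41, 6.31 and 5.89 FPKM in cardiomyocytes, against 1.95, 1.96 and 1.44 FPKM in fibroblasts (1.23, SE 0.159, adjusted p 7.74e-07), and its difference was 1.70 and 1.77 after the removals. Psme3 was the exception, at 3.66, 5.08 and 3.89 FPKM in cardiomyocytes, against 7.96, 11.8 and 4.11 FPKM in fibroblasts (-0.70, SE 0.276, adjusted p 0.0280). These groups overlap, and the call was lost without fibroblast replicate 1 (-0.65, adjusted p 0.0739), fibroblast replicate 2 (-0.39, adjusted p 0.204), cardiomyocyte replicate 1 (-0.62, adjusted p 0.0850) or cardiomyocyte replicate 3 (-0.65, adjusted p 0.0712). Psma5 (0.48, adjusted p 0.15), Psmd7 (0.47, adjusted p 0.0584) and Psmd11 (-0.17, adjusted p 0.516) were not called.

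The inducible catalytic subunits, which replace Psmb5, Psmb6 and Psmb7 in the immunoproteasome, were set beside their constitutive counterparts. Psmb8, Psmb9 and Psmb10 were all higher in 3 day TAC (1.19, 1.16 and 1.26), 10 day TAC (1.18, 1.29 and 1.07) and 4 day swim (1.41, 1.27 and 1.48), and only Psmb10 in 10 day swim (0.88, adjusted p 0.00479, with Psmb8 at 0.63 and Psmb9 at 0.41). After both trend removals only Psmb8 and Psmb10 in 4 day swim remained. None was called after MI. Within fibroblast libraries the constitutive genes exceeded the inducible ones by 1.32 to 1.76 log2 units in 10 day swim, 1.19 to 1.46 in 4 day swim, 1.32 to 1.56 in 10 day TAC, 1.70 to 2.20 in 3 day TAC and 1.73 to 1.81 in MI, against 1.34 to 1.37 in sham and 1.16 to 1.24 in sedentary fibroblasts. In cardiomyocytes Psmb8 was lower than in fibroblasts (-0.88, adjusted p 0.00947), Psmb9 was not called (0.08, adjusted p 0.838) and Psmb10 was higher (1.06, adjusted p 0.000169).

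Of 9 tested partners of the particle, 3 were higher and 3 lower in 3 day TAC, 3 and 3 in 10 day TAC, 2 and 3 in 4 day swim, and 2 and 1 in 10 day swim. The shares over all genes were 31.3% and 25.8%, 38.8% and 27%, 38.2% and 26.3%, and 30% and 13.6% in the same order. Shfm1, the smallest lid subunit, averaged 90.0 ± 13.2 FPKM in 3 day TAC fibroblasts (SD, n = 3) and 23.1 ± 1.63 FPKM in sham fibroblasts (SD, n = 2). Its log2 difference was 1.91 in 3 day TAC, 1.69 in 10 day TAC, 2.15 in 4 day swim and 1.58 in 10 day swim. Pomp, which matures the nascent core, followed with 1.36, 1.06, 1.43 and 0.96 in the same order. Both stood in all 4 after both trend removals and were also higher in cardiomyocytes (1.87 and 1.58). AI314180, whose product tethers core and cap (known as Ecm29), was lower in the 4 comparisons (-0.98, -1.0, -1.01 and -0.73) and higher in cardiomyocytes (0.72); in 3 day TAC this call was lost after trend removal.

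Of 4 regulators, 0 were higher and 2 lower in 3 day TAC, 0 and 3 in 10 day TAC, 1 and 3 in 4 day swim, and 0 and 1 in 10 day swim. Over all genes the shares were 31.3% and 25.8%, 38.8% and 27%, 38.2% and 26.3%, and 30% and 13.6% in the same order. Nfe2l2, a transcription factor of the oxidative stress response that can drive proteasome genes, averaged 15.5 ± 2.30 FPKM in 3 day TAC fibroblasts (SD, n = 3) and 48.1 ± 0.935 FPKM in sham fibroblasts (SD, n = 2), a log2 difference of -1.58, with -1.36 in 10 day TAC and -1.20 in 4 day swim. In 10 day swim it was not called (-0.34, adjusted p 0.363), and it was higher in 10 day swim than in 10 day TAC (1.02, adjusted p 0.0176). Nfe2l1, the factor that raises proteasome genes when the proteasome is inhibited, was lower in 10 day TAC (-0.74), 4 day swim (-1.27) and 10 day swim (-0.75), and not called in 3 day TAC (-0.46, adjusted p 0.186). Ddi2, the protease that activates Nfe2l1, was lower in 3 day TAC (-0.57), 10 day TAC (-0.49) and 4 day swim (-0.61), none of which stood after both trend removals. Ngly1, the glycanase that processes Nfe2l1, was at 1.60 ± 0.190 FPKM in 4 day swim fibroblasts, against 1.04 ± 0.222 FPKM in sedentary fibroblasts (SD, n = 3 each), and was called higher there (0.35, adjusted p 0.0157). It was not called in 3 day TAC (0.04), 10 day TAC (0.13) or 10 day swim (0.29), and after either trend removal it was called higher in 3 day TAC, 10 day TAC and 4 day swim. It was higher in cardiomyocytes (0.56). In cardiomyocytes Nfe2l2 was lower (-2.35) and Nfe2l1 higher (0.57) than in fibroblasts.

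Among ubiquitin genes, Rps27a, which encodes ubiquitin fused to a ribosomal protein, was higher in 3 day TAC (1.82), 10 day TAC (1.63), 4 day swim (2.34) and 10 day swim (1.91), and it stood after both trend removals in all 4. The polyubiquitin gene Ubb was higher in 4 day swim (0.52), and this call was lost after either removal (-0.37 and -0.24). Among factors that deliver substrates, Vcp, Ubqln1, Ubqln2 and Rad23b were lower in 10 day TAC and 4 day swim, and stood there after both removals. None of these 6 genes was called after MI, after sham or between the swim times.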

How the data were processed

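Stranded libraries were made from poly-A RNA of heart cells, per the labels' protocols. Per the submitters' processing notes, reads were processed with Cufflinks 2.0.2 on mm10, and the authors deposited an FPKM value per gene and library. Which aligner and annotation they used is not given in the sources used here. A further table, with log2 fold changes, p-values and q-values of the authors' own comparisons, was also deposited; its group names match the labels' groups only by wording. Confidence bounds of FPKM (44 columns) were not used.

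Genes reaching 1 FPKM in 2 or more libraries entered linear models of log2(FPKM + 1) in limma 3.58.1 (R 4.3.3), with its trend and robust options on. The 19 fibroblast libraries shared 1 model (9425 genes). Cardiomyocytes were set against fibroblasts in another model of all 22 libraries (10371 genes). Depth is known only relatively, from the lowest values of 3803 weakly expressed genes. The code was tested on simulated data.

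Members could all be named; in each comparison the 4 largest rises and falls among called members, Psmb5, Psmb6, Psmb7 and Psme1 to Psme4 were given in full. Members and lists were chosen with earlier results of these data known. Alternatives were a pseudocount of 0.1, no filter on low values, libraries scaled to the same median, a smooth trend on length and GC content removed (splines with 4 degrees of freedom, longest GENCODE M21 transcript), each replicate left out, and a replicate block. The trend on the principal transcript was added after seeing the data. Partner Paaf1 was not analysed here. Some genes of the ubiquitin and delivery lists are not reported here.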

Additional observations from a re-analysis of the deposited data

How the results depend on the processing

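The pseudocount of 0.1, no filter and median scaling left most calls as they were (over 42 members in 9 comparisons, 376, 369 and 368 calls were unmoved). Median scaling shifts all genes by 0.13 in MI and by 0.11 in 10 day swim and sham. The length and GC trend changed most. With the trend on the longest transcript removed, members higher numbered 13 in 10 day TAC, 17 in 4 day swim and 9 in 10 day swim (30.3%, 29.2% and 16.6% of all genes). Members lower numbered 6 in 4 day swim and 3 in 10 day swim (26.2% and 14.6%). With the principal transcript, higher were 20 in 3 day TAC, 10 in 10 day TAC, 12 in 4 day swim and 7 in 10 day swim (25.4%, 30.4%, 29.2% and 16.2% of all genes). Lower were 1, 6, 7 and 3 in the same order (20.8%, 26.3%, 24.4% and 13.1%). Without the filter 1 member was lower in 3 day TAC, and with median scaling 3 were lower in 10 day swim. Leaving out each library gave 1 to 4 lower in 3 day TAC, 0 to 2 higher in MI, 0 to 3 lower in 10 day swim, 1 to 2 higher and 0 to 1 lower in swim against TAC, and 0 to 1 lower in cardiomyocytes. Why the counts moved was not tested.

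Sign changes are listed only where the difference was called before or after the trend removal, and changes of uncalled differences are left out. With the longest transcript they were Psmc1 (-0.51) in 3 day TAC. In 10 day TAC they were Psmb2 (-0.17), Psmc4 (-0.069), Psmc5 (-0.29) and Psmg1 (-0.0046). In 4 day swim they were Psma4 (-0.17), Psma6 (-0.098), Psmb2 (-0.34), Psmc4 (-0.028), Psmc5 (-0.12), Psmd6 (-0.23), Psmd7 (-0.48), Psmd14 (-0.017), Psmd10 (-0.080), Psmg1 (-0.064) and Psmg2 (-0.21). In 10 day swim they were Psma1 (-0.036), Psmc1 (-0.48), Psmc5 (-0.10) and Psmg1 (-0.23), and in cardiomyocytes Psmb4 (-0.15) and Psmd8 (-0.11). With the principal transcript they were Psmd4 (-0.030), Psme1 (-0.26) and Psme4 (0.018) in 3 day TAC. In 10 day TAC they were Psmb2 (-0.18), Psmc4 (-0.17), Psmc5 (-0.18), Psmd4 (-0.29), Psme1 (-0.077), Psme4 (0.030) and Psmg3 (-0.16). In 4 day swim they were Psma4 (-0.062), Psma6 (-0.023), Psmb2 (-0.37), Psmc4 (-0.14), Psmc5 (-0.018), Psmd3 (-0.47), Psmd4 (-0.10), Psmd6 (-0.066), Psmd8 (-0.48), Psme4 (0.0076), Psmg1 (-0.0089), Psmg2 (-0.21) and Psmg3 (-0.047). In 10 day swim they were Psmc5 (-0.046), Psmd4 (-0.038), Psmd8 (-0.47), Psmg1 (-0.20) and Psmg3 (-0.089), and in cardiomyocytes Psmb4 (-0.13), Psmd8 (-0.22), Psme2 (-0.036), Psmg3 (-0.13) and Psmg4 (-0.22).

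Sedentary cardiomyocyte and fibroblast titles match in 3 pairs, 1 of them by a number written like a date, but pairing was not established: same-numbered deviations correlated at 0.233, 0.065 and 0.314, and fibroblast replicate 2 correlated better with cardiomyocyte replicate 1 (0.0812). With the replicate block 37 members were higher and 1 lower, and without the block in the same 6 libraries 32 and 0. Groups of 2 or 3 libraries limit precision, and without counts no counting error could be given.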
